A study of Mus musculus with 46 samples.

Results

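Potassium channel genes were followed in the dorsal raphe nucleus, the brainstem nucleus that holds a large share of the serotonin neurons of the brain. They were chosen by name and level: autosomal genes whose symbol starts with Kcn and 1 further letter, with a mean count of 20 or more at any age after both alleles were added. Of 15499 genes counted, 79 have such a symbol and 62 met the rule. Of the others, 14 were below the count limit, 2 are on the X chromosome and 1 is left out by name in the rule. The members just inside the limit were Kcnh5, Kcnh4 and Kcnf1, with mean counts of 22.7, 23.7 and 24.9 at their highest age, and just outside were Kcnk6 at 19.2 and Kcns1 at 17.3. Of the 62, 53 met the limit at every age. The other 9 (Kcnf1, Kcng4, Kcnh4, Kcnh5, Kcnmb1, Kcnmb4os2, Kcnn3, Kcns3 and Kcnv2) met it only at the ages where their counts were high, so the rule itself favours an age difference in them, and their age changes are given as descriptions. All but 1 of the 62 are protein-coding; Kcnmb4os2 is an antisense RNA of Kcnmb4.

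The 46 samples came from female F1 hybrids of the inbred mouse strains C57 and CAST, from reciprocal crosses named F1i and F1r. Each sample is called an animal below, but the labels do not say whether adult samples that share a number came from 1 animal. There were 7 F1i and 7 F1r samples at postnatal day 5 (P5), 7 and 7 at day 15 (P15), and 9 and 9 from adults, so every animal carried 1 allele of each strain at each autosomal gene, and the labels name no transgene or treatment. RNA-seq reads were counted per gene and per allele. The strain of the mother is not named for either cross, no day is given for the adults, and the pair of numbers in the adult names is not explained. The labels name each sample separately but do not say how animals or litters relate, so p-values measure the spread between these samples.

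Potassium channels set the resting potential of a cell, end its action potentials and fix the pace of repeated firing. Voltage-gated (Kv) channels open on depolarisation, inward rectifiers and tandem pore (K2P) channels carry current near rest, and calcium- or sodium-activated channels follow the ions that enter during activity. In serotonin neurons, G protein-gated inward rectifiers (GIRK) carry the inhibitory current of the serotonin autoreceptor Htr1a, and SK channels shape the long afterhyperpolarisation that keeps firing slow. In astrocytes, inward rectifiers take up the potassium that neurons release.

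Summed counts per library ran from 3692778 to 13085952, and levels are given as counts per 1000000 counts (CPM), the sum of both alleles scaled by library size and composition. CPM is not divided by gene length, and only reads that cover a strain difference can be assigned to an allele, so levels are compared between ages and not between genes. The tissue label was checked against Tph2 and Slc6a4, the synthesis enzyme and transporter of serotonin. Tph2 was at 81.4 to 134 CPM at P5, 397 to 777 at P15 and 459 to 694 in adults, and Slc6a4 was present in every library; of 3 cerebellar granule cell markers, the 1 that was counted stayed at 1.33 CPM or lower. Other cell markers moved with age, and none of the markers counted in these lists was at 0 at any age. The summed mature oligodendrocyte markers (7 of 8 listed genes counted) had medians of 1694 CPM at P5, 15117 at P15 and 6138 in adults, astrocyte markers (7 of 7) 3550, 8234 and 9023, immature neuron markers (4 of 5) 3941, 486 and 362, and general neuron markers (6 of 7) 3485, 2547 and 3628. In bulk tissue, fewer cells of a type and less RNA per cell cannot be told apart. By the spread of their counts over all genes, 3 libraries stood apart from their group, adult F1i 1_1 and P15 F1i 1 and 2, and where leaving them out ended a call given for a gene named here, that is said beside it.

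Most potassium channel genes, like most genes tested, passed the test for a change with age. The member counts below include the 9 genes that met the limit at some ages only, in which the rule itself favours a change. From P5 to P15, 22 of 62 rose, 34 fell and 6 did not pass the test (edgeR quasi-likelihood test, Benjamini-Hochberg adjusted p under 0.05), or 90.3% called beside 83.4% of all genes (42.5% rose and 40.9% fell). The median log2 change was -0.31, against 0.02 for all genes, and 32 members, beside 40.9% of all genes, had no overlap between the samples of both ages. From P15 to adult, 35 rose, 11 fell and 16 did not pass, 74.2% beside 74.7% of all genes (37% rose and 37.7% fell), with a median of 0.30 against -0.01. Between P5 and adult, 28 were higher and 23 lower in adults, 82.3% called beside 82.1% (40.6% higher and 41.5% lower over all genes). The largest group, 19 members, fell and then rose, 13 rose in both steps, 10 fell and then did not pass, and 5 fell in both. The shares of all genes on these paths were not counted, so the paths only describe the members. Both steps share the P15 samples, where the neuron marker sum was lowest and the mature oligodendrocyte sum highest. Of the 6 neuron markers, 2 rose and 3 fell in the first step (Syt1 from a mean of 775 to 883 CPM, Tubb3 from 1428 to 616) and 4 rose and 1 fell in the second, while the inhibitory neuron sum had medians of 1228, 1437 and 1441 CPM. The part of these cell types in the counts was not tested. Summed over the 62 genes, the level was 3091 to 3274 CPM at P5, 2848 to 3668 at P15 and 3741 to 4517 in adults.

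**Figure D1:**
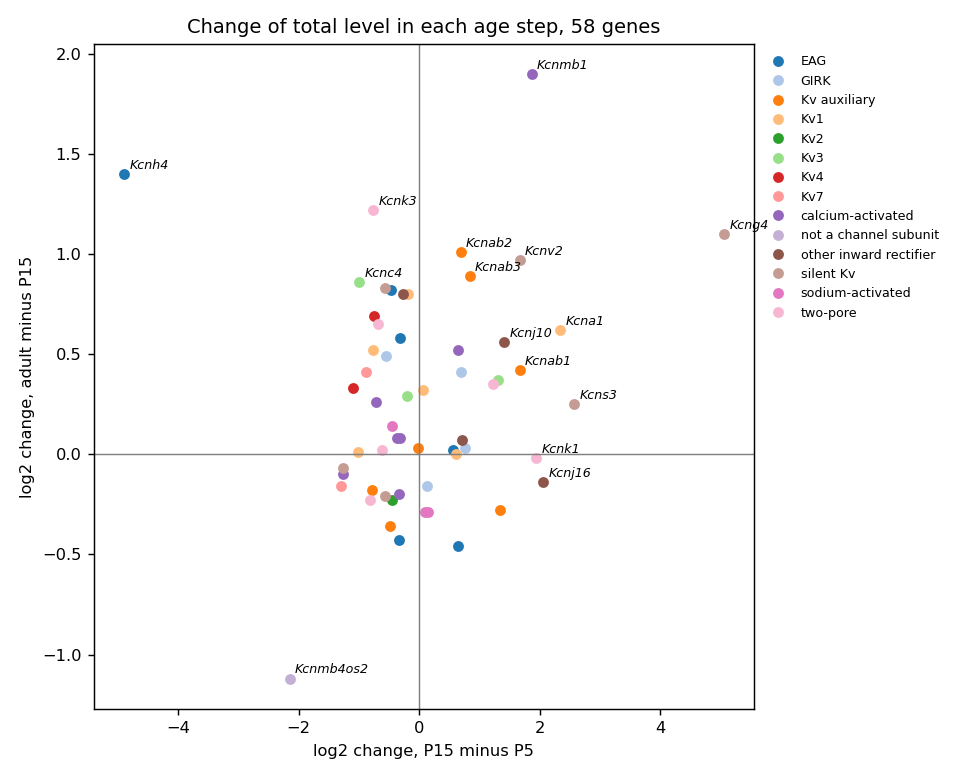
Log2 change of total level from P5 to P15 (x axis) and from P15 to adult (y axis) for 58 genes, coloured by family, with genes beyond 1.4 on the x axis or 0.85 on the y axis named. More points lie left of 0 than right of it on the x axis (31 of those drawn fell, 22 rose) and above 0 than below it on the y axis (31 rose, 11 fell). Kcng4 and Kcnh4 rest on few counts at 1 or more ages, and both axes use the P15 samples.

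Among the Kv1 genes, whose products form low-threshold channels of axons, 2 of 6 rose and 2 fell from P5 to P15, and 4 rose and 0 fell afterwards. Beside this and the family counts that follow, 42.5% of all genes rose and 40.9% fell in the first step. In the second step 37% rose and 37.7% fell. Kcna1 (ENSMUSG00000047976), a subunit of the channels beside the nodes of Ranvier, had a lowest, median and highest level of 13.2, 15.7 and 20.7 CPM at P5, 67.6, 84.5 and 105 at P15, and 82.3, 130 and 174 in adults. No P5 sample reached the lowest P15 sample, while P15 and adult samples overlapped. The log2 change was 2.34 ± 0.09 (SE; adjusted p = 1.4e-29) in the first step and 0.62 ± 0.07 (3.4e-11) in the second. Kcna6, a related subunit, went the other way first, from 195 to 225 CPM at P5 to 86.9 to 176 at P15, and stood at 148 to 212 in adults. Its changes were -0.76 ± 0.08 and 0.52 ± 0.08 on the log2 scale (adjusted p = 2.5e-12 and 3.3e-08). Kcna2, the usual partner of Kcna1, rose by 0.62 ± 0.11 and then differed by 0.00 ± 0.10 (adjusted p = 0.989), and Kcna3 fell by 1.02 ± 0.14. Kcna5 passed in the second step only, with a rise of 0.80 ± 0.11 after a first difference of -0.19 ± 0.13 (adjusted p = 0.183), and Kcna4 likewise rose by 0.32 ± 0.07.

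The cytoplasmic beta subunits that bind Kv1 channels all rose in both steps. Kcnab1 was at 17.8 to 26.7 CPM at P5, 49.1 to 88.2 at P15 and 74.2 to 130 in adults, changes of 1.67 ± 0.08 and 0.42 ± 0.07 (adjusted p = 5.3e-24 and 8e-07). Kcnab2 was at 106 to 124, 128 to 289 and 262 to 489 CPM, with the larger change in the second step (0.69 ± 0.10, then 1.01 ± 0.09). Kcnab3 rose by 0.84 ± 0.08 and 0.89 ± 0.07, and its samples of neighbouring ages did not overlap in either step.

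The Kv2 family encodes delayed rectifiers clustered on the cell body. Its member Kcnb2 fell by 0.45 ± 0.12 and then differed by -0.23 ± 0.11 (adjusted p = 0.0524). The silent Kv genes make no channel alone and modify Kv2 channels; 3 of 6 rose and 3 fell in the first step, and 4 rose in the second.

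Kcng4 met the count limit in adults alone. It had 3 counts over all 14 P5 libraries, 131 at P15 and 638 in adults. Scaled by library size, the P15 to P5 ratio was 50.5, with a 95% exact interval of 16.9 to 248 that covers counting error only. Kcns3 went from 0.479 to 2.32 CPM at P5 to 5.92 to 12.1 at P15, a rise of 2.58 ± 0.14 without overlap. Its P5 mean of 9.57 counts was under the limit. In adults it was at 8.43 to 13.6 CPM. This later rise of 0.25 was not called without the 3 libraries that stood apart (0.19 ± 0.09, adjusted p = 0.0583). Kcns2 went the opposite way, from 33.4 to 43 CPM at P5 to 12.4 to 20.1 at P15 and 10.9 to 18.8 in adults. That fall of 1.27 ± 0.07 (adjusted p = 2e-22) was followed by a difference of -0.07 ± 0.07 that did not pass the test. Kcnv2, known from photoreceptors, rose in both steps (1.67 ± 0.16 and 0.97 ± 0.11), from 0.937 to 2.31 CPM at P5, where it was under the limit, to 6.2 to 14.3 in adults.

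Kcnc1, Kcnc2 and Kcnc4, Kv3 genes whose products let neurons fire fast, rose from P15 to adult. Kcnc4 fell from 153 to 181 CPM at P5 to 50.9 to 137 at P15 and was at 113 to 184 in adults, so the adult samples again covered the P5 range. Kcnc2 rose in both steps without overlap (1.31 ± 0.05 and 0.37 ± 0.05), from 36.2 to 54.5 CPM at P5 to 95.5 to 126 at P15 and 128 to 176 in adults. Kcnc1 differed least of these, with changes of -0.20 ± 0.07 and 0.29 ± 0.07.

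Both Kv4 genes among the members, whose products carry the transient A-type current, fell and then rose. Kcnd2 (ENSMUSG00000060882) was at 210, 227 and 248 CPM at P5, 96.9, 107 and 126 at P15, and 104, 134 and 167 in adults. No P5 sample overlapped a P15 sample, and the log2 change was -1.09 ± 0.05 (adjusted p = 5.3e-27), with 0.33 ± 0.04 regained later. Kcnd3 fell by 0.75 ± 0.06 and rose by 0.69 ± 0.05, without overlap in either step. Of the KChIP genes, whose calcium-binding products assemble with Kv4, Kcnip1 fell from 244 to 282 CPM to 124 to 173 and then 114 to 166, and Kcnip2 fell in both steps (-0.49 ± 0.06 and -0.36 ± 0.06). Kcnip4 rose by 1.35 ± 0.07 and then fell by 0.28 ± 0.06; without strand information its reads cannot be told from those of 5730480H06Rik, which overlaps it on the other strand. Kcnip3 was the 1 member that passed neither step, at medians of 61.7, 61.7 and 63.1 CPM.

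**Figure D2:**
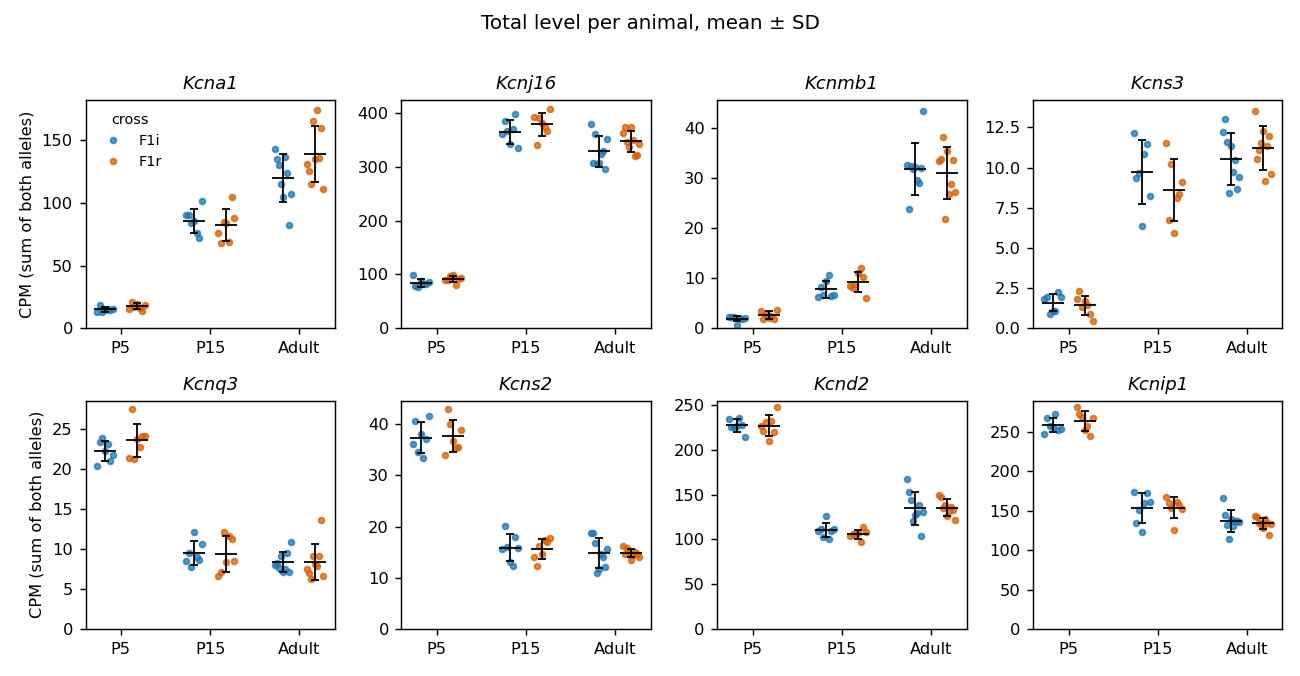
CPM (sum of both alleles) of 8 genes in every animal by age, F1i in blue and F1r in orange, with the group mean ± SD in black and linear axes from 0. Kcna1, Kcnj16, Kcnmb1 and Kcns3 sit low in all 14 P5 animals, and Kcnq3, Kcns2, Kcnd2 and Kcnip1 sit highest there.

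The Kv7 genes Kcnq3 and Kcnq5 fell from P5 to P15. The products of this family carry the slow M-current that holds back repeated firing. Kcnq3 was at 20.4, 22.9 and 27.5 CPM at P5, 6.66, 8.78 and 12.2 at P15, and 6.2, 7.96 and 13.6 in adults. It fell by 1.30 ± 0.09 (adjusted p = 2.9e-18) and then differed by -0.16 ± 0.09 (0.107). Kcnq5 changed by -0.88 ± 0.08 and 0.41 ± 0.07, so it regained part of its early fall.

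In the ether-a-go-go family, which includes the erg channels, 4 of 6 genes fell first and 2 rose. Kcnh4 met the count limit at P5 alone. It had 332 counts over the P5 libraries, 9 over P15 and 57 over adults; scaled by library size, P15 was 0.0313 times P5, with an exact 95% interval of 0.0142 to 0.0602 for counting error. P5 samples lay at 2.49 to 5.45 CPM and no P15 sample was above 0.352. The erg gene Kcnh2 fell by 0.47 ± 0.17 and rose by 0.82 ± 0.15, whereas the erg gene Kcnh7 rose by 0.65 ± 0.06 and fell by 0.46 ± 0.05. Kcnh7 shares exons with Gca on the other strand, and reads of the pair cannot be told apart. Kcnh6, the remaining erg gene, fell in both steps (-0.33 ± 0.06 and -0.43 ± 0.06).

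Of the calcium-activated genes, 5 of 7 fell and 2 rose in the first step, and 3 rose in the second. The BK pore gene Kcnma1 changed by -0.72 ± 0.07 and 0.26 ± 0.07, and its beta subunits differed from it and from one another. Kcnmb1 (ENSMUSG00000020155), the beta subunit known from smooth muscle, was at 0.74, 2.2 and 3.67 CPM at P5, 6.15, 8.35 and 12.1 at P15, and 21.9, 32.1 and 43.5 in adults, with no overlap between neighbouring ages. Its P5 mean of 14.4 counts was under the limit. It rose by 1.87 ± 0.14 and 1.90 ± 0.09, the largest second-step rise among the 62 genes. The summed markers of endothelial and mural cells, 7 of 7 counted and none at 0, had medians of 425, 400 and 177 CPM. From P5 to P15, 3 of them rose, 4 fell and the sums overlapped (401 to 455 and 351 to 495 CPM), and from P15 to adult 1 rose and 5 fell; their part in the Kcnmb1 result was not tested. Kcnmb4, the neuronal beta subunit, fell from 7.51 to 11.6 CPM to 1.96 to 6.8 (-1.26 ± 0.11), and its antisense partner Kcnmb4os2, which met the count limit at P5 alone, fell by 2.15 ± 0.11 and 1.12 ± 0.14. The stranding of the counts is not given in the sources used here, so this pair is uncertain. Among SK genes, Kcnn2 rose in both steps, from a median of 22.2 CPM to 35.6 and 51.7 (0.65 ± 0.08 and 0.52 ± 0.07), and Kcnn1 and Kcnn3 fell in the first step by 0.32 ± 0.06 and 0.37 ± 0.16.

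The sodium-activated channel gene Kcnt1 fell by 0.45 ± 0.06 and rose by 0.14 ± 0.05; the rise was not called with summed adult libraries (adjusted p = 0.0704). Kcnt2 did not pass in the first step and fell by 0.29 ± 0.11 in the second, where the adult range of 15.1 to 47.2 CPM was set at its top by the library F1i 1_1. Kcnu1, a relative best known from sperm, stood at medians of 3.51, 3.45 and 2.85 CPM and fell by 0.29 ± 0.10 in the second step.

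Of the K2P leak channel genes, 4 of 6 fell and 2 rose from P5 to P15. Kcnk1 (TWIK) went from 15.1, 19.6 and 22.2 CPM at P5 to 60.1, 74.1 and 91 at P15 and 63.6, 73.9 and 85.7 in adults, a rise of 1.94 ± 0.06 (adjusted p = 7.1e-33) and then a difference of -0.02 ± 0.05. Kcnk13, known from microglia, rose in both steps (1.23 ± 0.10 and 0.35 ± 0.08), while the summed microglial markers had medians of 190, 296 and 223 CPM and 3 of 3 rose and then fell; their part was not tested. Kcnk3 (TASK), a pH-sensitive leak channel, fell from 9.13 to 12.8 CPM to 3.49 to 9.9 and rose to 11.8 to 19.3, a second step of 1.22 ± 0.11 without overlap. Kcnk3 shares exons with Gm9899 on the other strand (mean count 15.2), and Kcnk4 with Catsperz on the same strand (9.9). Reads of the shared exons cannot be told apart. The mechanosensitive channel gene Kcnk2 (TREK) fell by 0.69 ± 0.05 and rose by 0.65 ± 0.05. Its relatives Kcnk4 and Kcnk10 fell by 0.81 ± 0.10 and 0.61 ± 0.08; the later fall of Kcnk4 (-0.23 ± 0.10, adjusted p = 0.0353) was not called without the 3 libraries that stood apart (-0.19, adjusted p = 0.0944) or by DESeq2 (0.0657).

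The GIRK genes did not move together. Kcnj3 was at 34.2, 37.3 and 44.4 CPM at P5, 53.9, 64.5 and 79.5 at P15, and 47.2, 63.7 and 91.3 in adults: P5 and P15 did not overlap, and P15 and adults did. It rose by 0.76 ± 0.07 (adjusted p = 2e-13) and then differed by 0.03 ± 0.07 (0.663). Kcnj9 rose in both steps, from 45.3, 51.6 and 57.6 CPM to 63.6, 83.3 and 113 and then 94.6, 115 and 138 (0.70 ± 0.07 and 0.41 ± 0.06). Kcnj6, a subunit that can form channels alone, fell from 7.2, 8.94 and 11.3 CPM to 3.96, 5.59 and 8.77. It stood at 6.69, 8.43 and 11.6 in adults, with overlap in both steps (-0.55 ± 0.11 and 0.49 ± 0.10, adjusted p = 1.3e-05 and 2.4e-05). Kcnj5, known from the heart, had medians of 20.1, 22.3 and 20.2 CPM and overlapped at all ages. Its changes of 0.13 ± 0.06 (adjusted p = 0.0406) and -0.16 ± 0.06 (0.00805) passed narrowly, and neither was called with summed adult libraries (adjusted p = 0.0562 and 0.0504), nor the first by DESeq2 (0.0613). The serotonin neuron marker sum had medians of 479, 1133 and 1233 CPM, of which Tph2 gave means of 103, 548 and 541. Of its 7 genes, 3 rose and 3 fell in the first step (Gata3 from a mean of 31.4 to 13 CPM) and 5 rose and 0 fell in the second. The part of these cells in the GIRK levels was not tested.

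**Figure D3:**
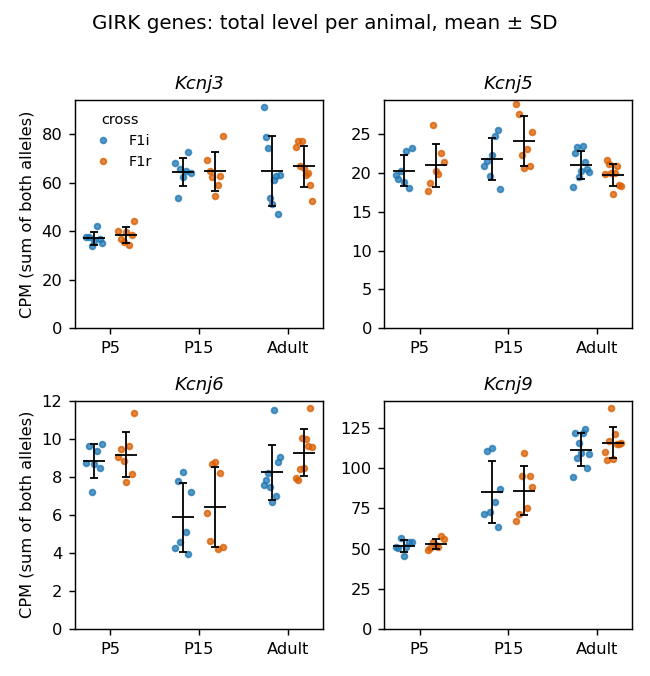
CPM (sum of both alleles) of the 4 GIRK genes in every animal by age, F1i in blue and F1r in orange, with the group mean ± SD in black and linear axes from 0. Kcnj3 and Kcnj9 rise from P5 to P15, Kcnj6 falls and comes back, and Kcnj5 overlaps across the 3 ages.

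Of 14 tested genes that couple to GIRK channels (receptors, G protein subunits and regulators), 4 rose and 10 fell in the first step, and 10 rose and 4 fell in the second. Beside this and the other partner lists, 42.5% of all genes rose and 40.9% fell in the first step. In the second step the shares were 37% and 37.7%. Htr1a was at medians of 39, 53.1 and 92.2 CPM and rose in both steps (0.48 ± 0.07 and 0.81 ± 0.06). The GABA-B receptor subunit Gabbr2 fell by 1.62 ± 0.09 and rose by 1.03 ± 0.09, and Gnao1, the abundant G protein alpha subunit of brain, fell by 1.30 ± 0.08 and rose by 0.58 ± 0.08. Rgs4, which speeds the shut-off of G protein signals, rose by 0.75 ± 0.06 and fell by 0.76 ± 0.05. Among 19 partners of Kv channels, 7 rose and 10 fell first, and 13 rose and 3 fell later. Nedd4l, a ubiquitin ligase that acts on Kv7 channels, fell by 1.38 ± 0.07, and the secreted protein genes Lgi1 and Lgi3 rose by 0.78 ± 0.05 and 1.14 ± 0.06. Amigo1, the auxiliary protein of Kv2 channels, rose by 0.99 ± 0.07 in the second step. Of 4 tested KATP and BK partner genes, 1 rose and 2 fell first, and 2 rose and 1 fell later. Of 11 genes for pumps and cotransporters of potassium, 5 rose and 4 fell first, and 10 rose and 0 fell later. The neuronal chloride and potassium exporter Slc12a5 fell by 1.26 ± 0.10 and rose by 0.79 ± 0.10.

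Inward rectifiers other than GIRK were higher in adults than at P5 in 4 of 4 cases, beside 40.6% of all genes. Kcnj10, the main inward rectifier of astrocytes and oligodendrocytes, was at 41.1, 48.5 and 53.4 CPM at P5, 92.9, 129 and 177 at P15, and 151, 196 and 222 in adults (1.41 ± 0.08 and 0.56 ± 0.07). Kcnj16 (ENSMUSG00000051497), which assembles with Kcnj10, was at 76.1, 88.5 and 98.5 CPM at P5, 334, 371 and 407 at P15, and 295, 339 and 379 in adults. Every P15 sample was above every P5 sample, with a rise of 2.06 ± 0.04 (adjusted p = 3.6e-40), and P15 and adults overlapped (-0.14 ± 0.04). Both genes moved in the first step in the direction of the astrocyte and mature oligodendrocyte marker sums (6 of 7 and 7 of 7 markers rose), whose part was not tested. Kcnj2, a strong inward rectifier, rose by 0.72 ± 0.08, and Kcnj12, its close relative, fell by 0.26 ± 0.08 and rose by 0.80 ± 0.08.

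Reference sequence upstream of the start sites is shown for Kcnj16 and Kcnmb1, the members whose allele ratio changed most with age, and for Kcnd2, a gene that fell early. The 250 bases before each start were taken from RefSeq on build GRCm38.p6, all on the + strand, and are the C57 reference; CAST sequence was not used here. Capitals mark matches on either strand to the TATA box (TATAAA), the GC box (GGGCGG), the CCAAT box and the cAMP response element or CRE (TGACGTCA). Kcnj16 has 4 annotated starts, at chr11:110967783-110968032, chr11:110997237-110997486, chr11:111019335-111019584 and chr11:111023610-111023859 for the windows below. Kcnmb1 is at chr11:33962763-33963012 and Kcnd2 at chr6:21215096-21215345.
Kcnj16 start 1: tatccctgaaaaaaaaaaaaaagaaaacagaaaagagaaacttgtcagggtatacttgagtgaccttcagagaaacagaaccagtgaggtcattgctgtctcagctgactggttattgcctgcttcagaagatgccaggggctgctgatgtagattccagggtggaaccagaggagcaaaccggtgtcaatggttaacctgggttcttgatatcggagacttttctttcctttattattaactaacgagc
Kcnj16 start 2: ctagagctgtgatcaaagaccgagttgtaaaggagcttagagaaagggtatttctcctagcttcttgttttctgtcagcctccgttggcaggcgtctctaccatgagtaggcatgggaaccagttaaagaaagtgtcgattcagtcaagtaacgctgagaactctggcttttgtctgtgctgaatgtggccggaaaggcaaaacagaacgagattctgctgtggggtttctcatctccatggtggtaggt
Kcnj16 start 3: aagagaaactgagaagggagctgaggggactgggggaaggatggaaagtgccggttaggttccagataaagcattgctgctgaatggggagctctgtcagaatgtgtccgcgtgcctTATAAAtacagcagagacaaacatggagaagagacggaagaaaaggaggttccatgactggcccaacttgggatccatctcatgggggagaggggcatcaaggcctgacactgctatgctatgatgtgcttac
Kcnj16 start 4: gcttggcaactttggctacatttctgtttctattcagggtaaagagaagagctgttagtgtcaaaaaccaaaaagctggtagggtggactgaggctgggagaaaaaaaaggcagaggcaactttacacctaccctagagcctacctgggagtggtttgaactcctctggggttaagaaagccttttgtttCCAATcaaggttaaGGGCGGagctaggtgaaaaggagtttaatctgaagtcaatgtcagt
Kcnmb1: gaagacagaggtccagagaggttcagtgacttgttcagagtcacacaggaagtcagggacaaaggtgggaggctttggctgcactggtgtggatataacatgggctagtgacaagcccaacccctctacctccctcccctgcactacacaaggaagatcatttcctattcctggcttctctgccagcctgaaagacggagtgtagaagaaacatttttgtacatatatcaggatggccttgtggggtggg
Kcnd2: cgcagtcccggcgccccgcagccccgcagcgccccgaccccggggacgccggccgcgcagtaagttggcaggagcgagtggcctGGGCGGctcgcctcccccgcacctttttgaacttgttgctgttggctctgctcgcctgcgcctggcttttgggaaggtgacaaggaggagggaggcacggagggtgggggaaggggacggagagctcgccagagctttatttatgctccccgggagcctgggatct
Starts 1 and 2 of Kcnj16 and that of Kcnmb1 held none of the 4 motifs, start 3 held a TATA box, start 4 a GC box and a CCAAT box, and that of Kcnd2 a GC box. The GC content was 42.8%, 47.6%, 51.2% and 44.8% in the 4 windows of Kcnj16, 50.8% in Kcnmb1 and 68.8% in Kcnd2. Of the 62 genes, 47 had an entry, 34 of them with 1 start and 13 with more. Over their 70 windows, a GC box stood in 44.3% beside 32.7% of 32851 windows of all genes, a CCAAT box in 32.9% beside 33.8%, a TATA box in 2.86% beside 12.4% and a CRE in 0 of 70 beside 1.55%. The median GC content was 59% for the members and 52.4% for all windows. By direction in the first step, the 18 members that rose had a median of 57.6% and a GC box in 10, and the 25 that fell had 62% and a GC box in 18. A match is a description of these letters and not a binding site.

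The reciprocal crosses were compared next, F1i against F1r at each age. At P5, 1 of 60 tested members was called, beside 1.17% of all genes. That gene was Kcnj10, at 41.1, 43.8 and 47.5 CPM in F1i and 49.6, 51.4 and 53.4 in F1r, so that all 7 F1i samples were below all 7 F1r samples (-0.21 ± 0.05, adjusted p = 0.00586). All 7 tested mature oligodendrocyte markers were also lower in F1i at P5 (summed level 1356 to 1600 CPM against 1789 to 2261, each called). So were 1 of 7 astrocyte, 3 of 7 serotonin neuron, 2 of 5 neuron and 1 of 3 inhibitory neuron markers. Of the immature neuron markers, 3 of 4 were higher in F1i. The part of these cell types in the Kcnj10 result was not tested. At P15 the Kcnj10 difference was -0.07 ± 0.15 and in adults -0.15 ± 0.07, neither called. At P15, edgeR called 0 of 59 members (0.0467% of all genes) and DESeq2 0. The unadjusted edgeR p was under 0.05 in 2 of 59 members and 235 of 12850 genes. In adults edgeR called 0 of 61 (0.111% of all genes) and DESeq2 0. There the unadjusted edgeR p was under 0.05 in 11 of 61 members and 1244 of 13516 genes. Summing adult libraries that share the first label number gave 3 members (2.13% of all genes) lower in F1i by edgeR. Among them were Kcnab2 (-0.22 ± 0.04, adjusted p = 0.00973) and Kcnab3 (-0.27 ± 0.06, 0.0231). Single libraries of these 2 genes overlapped between the crosses. The age changes did not pass a test of a difference between crosses in any member by edgeR or DESeq2. Over all genes, edgeR called 0.0147% for P15 minus P5 and 0.0367% for adult minus P15. Its unadjusted p was under 0.05 in 1 and 8 of 62 members, beside 341 and 840 of 13637 genes.

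Within each animal, the CAST and C57 alleles of a gene share cells, RNA and library, so their ratio is a within-animal comparison. At P5, 11 of 56 tested members were higher from the CAST allele and 17 from the C57 allele, 50% called beside 58.4% of all genes (31.5% from CAST and 26.9% from C57); DESeq2 called 7 and 8 members and 39.5% of all genes. At P15, the counts were 10 and 15 of 56, 44.6% beside 58.4% (31.1% and 27.3%). In adults, 22 and 24 of 60 were called, 76.7% beside 67.8% (35.9% and 31.9%). Of the same 60 members and 12675 genes, DESeq2 called 38 and 8105, and limma 45 and 8392. A composition factor for each allele column in edgeR gave 41 and 8626, so the difference from all genes varied with the method. The median library held 10923240 counts in adults and 5044115 at P15. The median size of the called log2 ratios was 0.27, 0.36 and 0.19 at the 3 ages, against 0.27, 0.29 and 0.25 over all called genes. Of 53 members tested at every age, 15 were called at all 3, of which 6 favoured CAST and 8 favoured C57 throughout, or 26.4% beside 39.1% of all genes. Kcnip3 was the remaining one and changed direction. Of the 53, 7 were called at no age, and the share of all genes called at no age was not counted. Opposite directions at different ages were called in 3 (5.66% beside 4.38%): Kcna6, Kcnip3 and Kcnq5. DESeq2 did not call Kcnip3 or Kcnq5 at P5 (adjusted p = 0.155 and 0.102) or in adults (0.056 and 0.0543). Without the 3 libraries that stood apart, edgeR did not call Kcnq5 in adults (adjusted p = 0.0595).

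**Figure D4:**
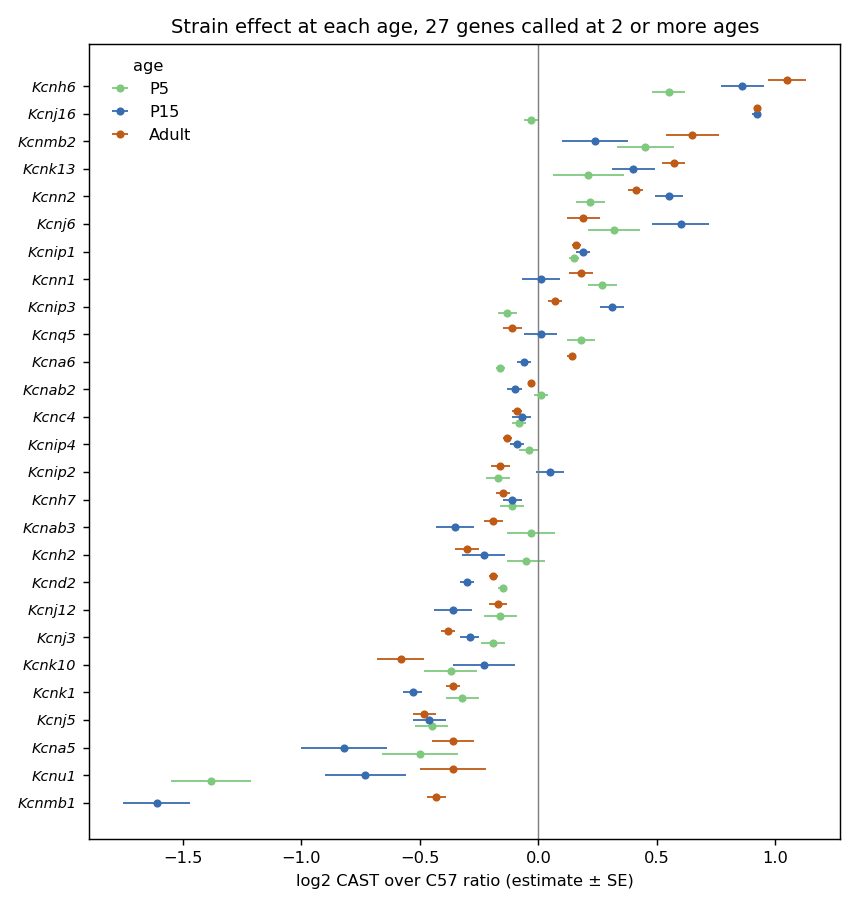
Estimated log2 CAST over C57 ratio ± SE (x axis) at P5, P15 and in adults for 27 genes called at 2 or more ages, Kcnv2 left out for scale, ordered by their mean. Most genes keep their side of 0 across ages, Kcnj16 sits at 0 only at P5, and Kcnmb1, not tested at P5, moves toward 0 in adults.

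The largest ratio belonged to Kcnv2, whose CAST share of counts was 90.5% to 100% in the 14 P15 animals and 90% to 100% in the 18 adults. That is a log2 ratio of 4.79 ± 0.24 and 4.57 ± 0.13 (adjusted p = 6.1e-23 and 1.8e-27). The P5 libraries held 6 to 13 counts of the gene and were not tested. Kcnh6 favoured CAST in all 46 animals, with median shares of 60.2%, 63.8% and 69% and log2 ratios of 0.55 ± 0.07, 0.86 ± 0.09 and 1.05 ± 0.08. The change of this ratio with age did not pass in either step (adjusted p = 0.0605 and 0.353). Kcnmb2 and Kcnn2 also favoured CAST; the P5 call of Kcnn2 was not made by DESeq2 (adjusted p = 0.0627). Kcnmb4os2 at P5 had a ratio of 2.22 ± 0.12, and Kcnmb4 on the opposite strand -0.21 ± 0.10 (adjusted p = 0.0796).

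The C57 allele led in Kcnj5 in every animal at every age, with median CAST shares of 42.1%, 42.4% and 42% and log2 ratios of -0.45 ± 0.07, -0.46 ± 0.07 and -0.48 ± 0.05. Kcnj3 also favoured C57 (-0.19 ± 0.05, -0.29 ± 0.04 and -0.38 ± 0.03), whereas Kcnj6 favoured CAST (0.32 ± 0.11, 0.60 ± 0.12 and 0.19 ± 0.07; at P5 adjusted p = 0.0683 by DESeq2) and Kcnj9 passed in adults, at 0.10 ± 0.02. Kcnk1 was lower from CAST in all 46 animals (-0.32 ± 0.07, -0.53 ± 0.04 and -0.36 ± 0.03). Kcng4, tested in adults only, had a CAST share of 17.1% to 46.2%, with C57 higher in 18 of 18 (-1.31 ± 0.12, adjusted p = 5e-12). Kcnu1 stood at -1.38 ± 0.17 at P5 and at -0.73 ± 0.17 and -0.36 ± 0.14 later, from about 20 to 30 counts per library; the adult call was lost with DESeq2 (adjusted p = 0.0781) and limma (0.122). Kcna5 and Kcnk10 favoured C57 as well, but at P5 DESeq2 and limma did not call Kcna5 (adjusted p = 0.0544 and 0.0597).

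The ratio itself was then compared between ages. From P5 to P15 it moved toward CAST in 4 of 58 members and toward C57 in 3, 12.1% beside 18.7% of all genes (9.06% and 9.65%). From P15 to adult, 6 moved toward CAST and 3 toward C57, 15.5% beside 15.5% (7.47% and 8%). With a composition factor for each allele column, the share of toward-CAST calls over all genes went from 48.4% to 33.6% in the first step and from 48.3% to 66.2% in the second, and the members' calls toward CAST and C57 from 4 and 3 to 3 and 7 (20.1% of all genes called) and from 6 and 3 to 8 and 2. With limma, the first step gave 6 and 6 (21.5% of all genes). The balance of directions among members in the first step therefore differed with the composition factor and with limma, and the cause was not tested.

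Kcnj16 changed most in the first step. Its CAST share was 46.7%, 49.2% and 53.2% (lowest, median, highest) at P5, 63.6%, 64.9% and 67.5% at P15, and 63.7%, 65.3% and 67.4% in adults, behind means of 553, 2055 and 3377 counts per library. No P5 animal reached the lowest P15 animal, and all 32 older animals had more CAST than C57 counts. The change in log2 ratio was 0.95 ± 0.04 (adjusted p = 8.9e-33) and then -0.01 ± 0.03 (0.912), and it coincided with the rise in total level. Kcnj10, the partner gene, had ratios of 0.08 ± 0.04 and -0.01 ± 0.03 at P5 and P15 and moved toward CAST later, by 0.20 ± 0.03 (adjusted p = 4.1e-06), to a share of 50.9% to 55.7% in adults.

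Kcnmb1 changed most in the second step. Its CAST share was 9.52%, 24.8% and 41.4% at P15 and 35.6%, 42.5% and 46.6% in adults, so the ages overlapped, and C57 led in all 46 animals. The ratio moved by 1.19 ± 0.14 (adjusted p = 4.8e-10), behind means of 46.7 and 316 counts per library, while the total level rose. Kcnk2 moved the other way, from a share of 44.9% to 53.9% at P15 to 40.3% to 45.8% in adults (-0.35 ± 0.05, adjusted p = 7.9e-07), and C57 led in 18 of 18 adults.

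Kcnip3, whose total level passed neither age step, changed its ratio in both: median CAST shares were 47.4%, 56.2% and 51.1%, changes of 0.45 ± 0.07 and -0.24 ± 0.06 (adjusted p = 2.1e-07 and 0.00168). Kcna6 crossed from C57 to CAST, with CAST higher in 1 of 14 animals at P5, 4 of 14 at P15 and 16 of 18 as adults, and a second-step change of 0.19 ± 0.04 (adjusted p = 4.6e-05). Smaller first-step changes were called for Kcnn2 (0.33 ± 0.09), Kcnip2 (0.22 ± 0.07), Kcnd2 (-0.14 ± 0.04) and Kcnab2 (-0.11 ± 0.03). In the second step Kcnk1 (0.16 ± 0.05) and Kcnip2 (-0.21 ± 0.07) were called. Without the 3 libraries that stood apart, Kcnk1 and Kcnip2 lost their second-step calls (adjusted p = 0.05 and 0.0615). With the composition factor, Kcnip2 was called in neither step (0.0517 and 0.0671).

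**Figure D5:**
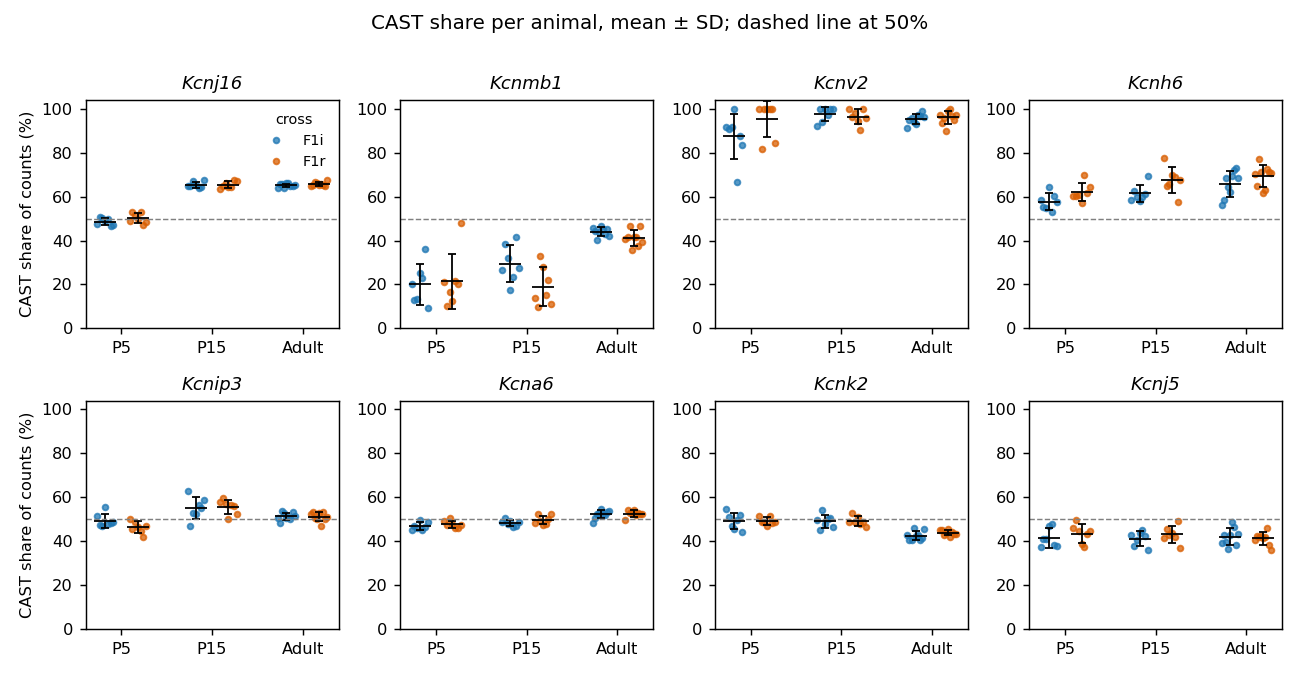
CAST share of allele counts (%) in every animal for 8 genes by age, F1i in blue and F1r in orange, with the group mean ± SD in black and equal shares dashed at 50%. Kcnj16 lies around 50% at P5 and between 63.6% and 67.5% in all older animals, and Kcnv2 lies near 100%; the P5 points of Kcnmb1 and Kcnv2 rest on few counts.

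Parental origin was separated from strain by comparing the allele ratio between the reciprocal crosses. No member passed by edgeR, DESeq2 or limma, out of 56 tested at P5, 56 tested at P15 and 60 tested in adults, beside 2.71%, 0.742% and 2.71% of all genes by edgeR. By edgeR, 2, 3 and 3 members had an unadjusted p under 0.05, beside 958 of 12070, 710 of 11996 and 1077 of 12675 genes.

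Spread between animals differed by age. Among members with a mean of 100 counts or more, the median coefficient of variation of CPM within a group was 6.87% and 6.5% at P5 (F1i and F1r), 15.3% and 14.5% at P15, and 13.2% and 10.7% in adults, beside 5.81%, 5.99%, 11.8%, 11%, 11.5% and 9.05% over all genes of that depth.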

How the data were processed

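The authors deposited raw counts, whole numbers for each allele of a gene, in 1 table per age, with 92 columns for 46 samples; 0 columns matched no sample. Reads were 50 bp single-end, per the labels, and Novoalign and the mm9 build are named in the submitters' processing notes. How reads were assigned to an allele and which strand was counted is not given in the sources used here. Symbols came from GENCODE by Ensembl identifier (14969 of 15499 matched); no mm9 coordinates were used. Exons of 23 members overlap another annotated gene, for 8 of them a gene counted here.

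Both alleles were added for the age and cross tests (edgeR 4.0.16 quasi-likelihood, TMM, low-count filter). Allele ratios were fitted in edgeR with a term per sample and the sample total as library size, for genes with a mean count of 20 or more. DESeq2 1.42.0 and limma 3.58.1 (log2 ratio with 0.5 added) were alternatives, run in R 4.3.3. P-values were adjusted over all genes tested and called under 0.05; 91 genes had no count. The main edgeR fits were tested on simulated data for the first age step, the adult cross difference, and the strain and parental effects at P5. The fit for the change of the strain ratio was tested in its first step. The alternatives were not tested in this way. Libraries of 1 group differed beyond sampling noise, so each was kept.

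The named genes were the 8 with the largest change in each direction and age step, the 6 with the largest strain ratio in each direction called at 2 or more ages, up to 8 called members of each remaining test, all GIRK genes and examples of each family; partner genes were taken by smallest p. Members, lists and families were chosen with earlier results of these data known. Leaving out the 3 libraries that stand apart was chosen after seeing the data. Results of some genes are not reported here, and they are left out of the figures; counts over all members include them.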

Additional observations from a re-analysis of the deposited data

Results flagged for a closer look

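In 12 of 216 groups of 7 or 9 samples tested for the named genes, 1 library lay far from the others by Dixon's criterion; chance alone gives about 1 group in 20. At P5, Kcnip2 was lowest at 44 CPM in F1i 6 (group median 47.6) and Kcnip3 highest at 66.9 in F1r 6 (58.8). At P15, Kcnv2 was lowest at 2.1 in F1i 5 (4.59) and highest at 8.11 in F1r 1 (5.51). Among adult F1i libraries, Kcng4 was highest at 5.55 CPM (3) and Kcnj6 at 11.5 (7.83), both in 3_2. Kcnmb1 was highest at 43.5 in 3_3 (32). Kcnip4 at 195 (122) and Kcnt2 at 47.2 (19.3) were highest in 1_1, which also stood apart over all genes. Among adult F1r libraries, Kcna5 was lowest at 3.57 in 6_2 (6.58), Kcnj9 highest at 138 in 5_2 (115) and Kcnq3 highest at 13.6 in 7_3 (7.88).

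The strain ratio differed between ages by the test of the change itself in 11 of the named genes. From P5 to P15 the log2 changes were 0.95 for Kcnj16, 0.45 for Kcnip3, 0.33 for Kcnn2, 0.22 for Kcnip2, -0.14 for Kcnd2 and -0.11 for Kcnab2. From P15 to adult they were 1.19 for Kcnmb1, 0.20 for Kcnj10, 0.19 for Kcna6, 0.16 for Kcnk1, -0.35 for Kcnk2, -0.24 for Kcnip3 and -0.21 for Kcnip2.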

How the results depend on the processing

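No gene named by the rule changed direction under any alternative run. At P5, DESeq2 called 7 members higher from CAST and 8 from C57, against 11 and 17, and 4769 of 12070 genes, against 7052. Summing adult libraries over the first label number gave 3 members lower in F1i, against 0, and 306 of 14376 genes, against 15 of 13516. For the change of the strain ratio from P5 to P15, the balance of member calls turned: 3 moved toward CAST and 7 toward C57 with a TMM factor for each allele column and 6 and 6 with limma, against 4 and 3, while 2504 and 2667 genes were called, against 2325. The cause of these differences was not tested. With the label number as a replicate block, Kcnj5 lost its first age call (log2 change 0.13, adjusted p = 0.0509), the other calls of named genes that the block fit covers were kept, and 77 genes, but 0 members, were called between the crosses in adults, against 15 and 0. Same-number samples of the crosses did not all deviate together: their correlations had a median of 0.004 (-0.092 to 0.049) at P5 and -0.143 (-0.343 to 0.691) at P15. Adult libraries sharing the second number had a median of 0.28 (-0.406 to 0.795), against -0.108 for other numbers, and within a cross 0.259, against -0.231. Not every pair was over 0.1, so the number was not treated as a pair. That rule cannot exclude a shared structure, and adult libraries with the same second number were more alike at the median. The main adult fits do not take this into account. Kcnj5 was also lost with RLE size factors (0.0529) and with summed adult libraries (0.0562 and, in the second step, 0.0504). Other calls lost among genes named by the rule included Kcnk4 in the second step with DESeq2 (0.0657) and Kcna5 at P5 with limma (0.0597) and DESeq2 (0.0544). At P5, DESeq2 also lost the strain calls of Kcnn2 (0.0627), Kcnj6 (0.0683) and Kcnip2 (0.0622). Kcnu1 in adults was lost with limma (0.122) and DESeq2 (0.0781), and Kcnip2 in both ratio changes with the TMM factor (0.0517 and 0.0671). Calls lost without the 3 libraries that stood apart are given beside the gene. Depth limits the 9 members with a mean under 20 counts per library at 1 or more ages: Kcnf1, Kcng4, Kcnh4, Kcnh5, Kcnmb1, Kcnmb4os2, Kcnn3, Kcns3 and Kcnv2.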
